A study of Caenorhabditis elegans with 12 samples.

Results

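The 8 RNAi libraries of this series were divided into sets of 4 that cut across the RNAi groups. One set, called set P here, holds *cat-1* RNAi replicates 1 and 2 and *cat-2* RNAi replicates 2 and 4. The other, set Q, holds *cat-1* RNAi replicates 3 and 4 and *cat-2* RNAi replicates 1 and 3. Of the 12 libraries in all, the remaining 4 are empty vector (EV) controls, which had no part in the choice. The split was picked from the expression values themselves and no label names it, so every difference between the sets is given as a description without a test. The values come from 13161 features of the 46739 in the table, those with at least 0.5 RPKM (reads scaled by feature length and by the mapped reads of the library) in at least 4 of the 12 libraries.

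All 12 libraries came from whole day 1 adults of PMD216. The labels list dat-1p::GFP, a dat-1p::sid1-SL2-rde-1 transgene, rde-1(ne219) V and rrf-3(b26) II, and the study's methods add fem-1(hc17) IV, eri-1(mg366) IV and lin-15B(n744) X. The *dat-1* promoter drives RDE-1 and SID-1 in dopaminergic neurons of a mutant that otherwise lacks RDE-1, so that feeding RNAi is meant to act there alone. Worms were fed HT115 bacteria carrying the L4440 empty vector (EV), *cat-1* RNAi against the vesicular monoamine transporter or *cat-2* RNAi against tyrosine hydroxylase, with 4 libraries each, and each library pools many animals. The libraries held 18765779 to 21493743 mapped reads, and between 12540 and 12862 features reached 0.5 RPKM in each.

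The target genes told the groups apart but were not lower in the libraries labelled with their RNAi. *cat-1* ranged over 0.0547 to 0.139 RPKM in EV, 0.322 to 1.51 under *cat-1* RNAi, and 0.0853 to 0.206 under *cat-2* RNAi. *cat-2* had 0.116 to 0.209 RPKM in EV, 0.0541 to 0.263 in *cat-1* RNAi and 0.728 to 1.90 in *cat-2* RNAi. Both targets were highest in their own RNAi group and their values overlapped between set P and set Q. Names such as *cat-1* RNAi below are therefore the labels of the libraries, not a measured knockdown. The genes *rde-1* (36.04 to 47.1 RPKM) and *sid-1* (36.2 to 47.3 RPKM), which the transgene carries, also overlapped between the sets. Both were highest in *cat-2* RNAi replicate 2. Whole-worm RPKM does not separate the transgene from the native genes, so transgene expression was not measured.

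Several gene classes described here are known for tight developmental timing. The nematode cuticle is built by the epidermis from collagens and from an apical matrix of zona pellucida and leucine-rich repeat proteins, whose genes are transcribed in embryos and in pulses ahead of each larval molt. Ribosomal protein genes form the most abundant class of short transcripts in an adult, and the germline supplies much of the mRNA of a whole adult worm. In whole-animal RNA, fewer cells of a type and less RNA per cell cannot be told apart.

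Far more features were higher in set P than lower. In 956 features all 4 libraries of set P lay above all 4 of set Q (7.26% of those kept), and in 174 all 4 lay below (1.32%). Since the libraries were placed in the sets by these values, the shares describe the split and carry no test. The mean of log2(RPKM + 0.5) was at least 1.5-fold higher in set P for 266 features (2.02%) and at least 1.5-fold lower for 103 (0.783%), and 145 and 16 of these were also without overlap. The differences were mostly small, with a median of 0.30 on the log2 scale over the 956 features and of -0.17 over the 174. Over all features kept the median difference was 0.039, and 62.3% of features lay above 0. The balance depended on scaling: after dividing each library by its median ratio to the mean library, 628 features were higher and 396 lower without overlap, so that the higher ones made up 61.3% of such features in place of 84.6%.

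The features just inside and just outside the level rule had similar medians but differed in spread. The 254 features at 0.5 RPKM in exactly 4 libraries had a median difference of 0.029, and the 304 that reached it in exactly 3 libraries had one of 0.023, with 8 features without overlap in each. The differences ran wider in both directions among the 254, with a highest value of 1.82 against 0.94 among the 304. Both had a smaller share without overlap than all 13161 features, of which 956 were higher and 174 lower.

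The position of a library on the split is its projection on the difference between the sets, scaled so that set Q averages -0.5 and set P 0.5. *cat-2* RNAi replicate 2 stood farthest out in set P at 0.71, and *cat-2* RNAi replicate 3 farthest in set Q at -0.65. These positions use each library's own values to define the axis. When each RNAi library was placed with the other 7 alone, set P lay at 0.24 and 0.0020 (*cat-1* RNAi replicates 1 and 2) and at 0.23 and 0.018 (*cat-2* RNAi replicates 2 and 4). Set Q then lay at -0.28 and -0.093 (*cat-1* RNAi replicates 3 and 4) and at 0.074 and -0.27 (*cat-2* RNAi replicates 1 and 3). The sets overlapped in this placement, with *cat-2* RNAi replicate 1 of set Q above 2 libraries of set P. Across features, the difference within *cat-1* RNAi and that within *cat-2* RNAi correlated weakly (Pearson r = 0.20 over 13161 features, which share the depth of their libraries). The sign was the same in both for 58.5% of features. Such agreement is what a split picked from these values selects, so it carries no test.

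**Figure D1:**
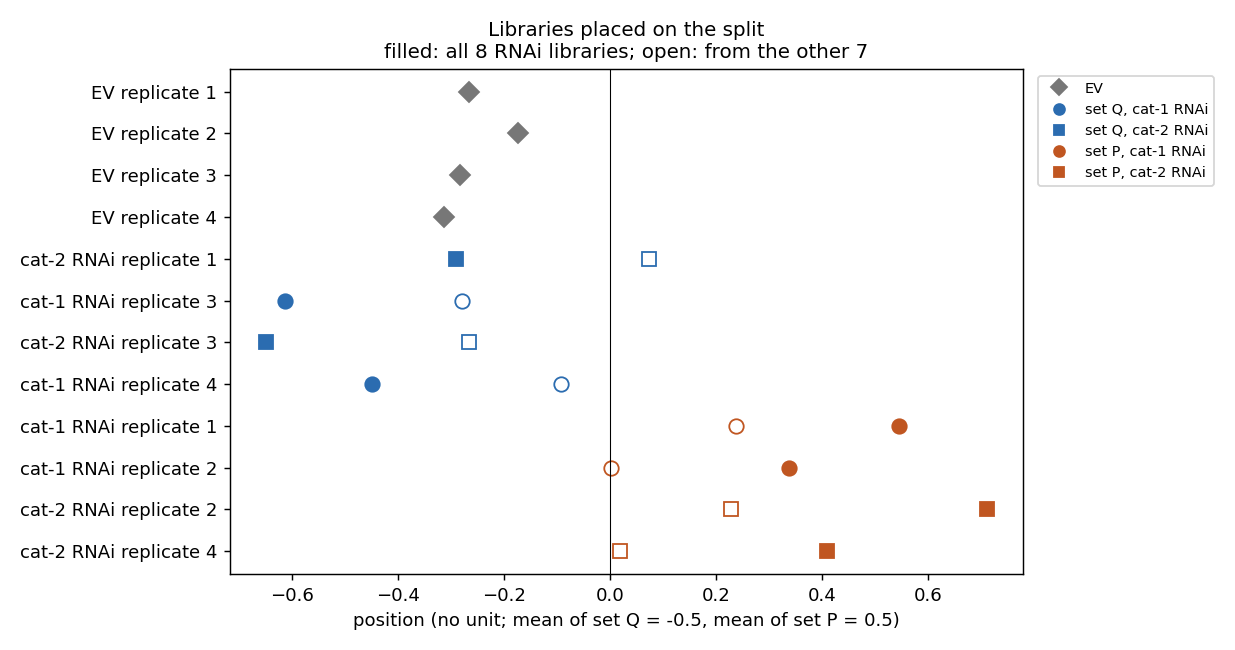
Position of each of the 12 libraries on the split (no unit), with filled symbols for the axis from all 8 RNAi libraries and open symbols for the axis from the other 7. The 4 EV libraries sit between -0.31 and -0.17, and the open symbols of set P (0.0020 to 0.24) and set Q (-0.28 to 0.074) overlap.

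The EV libraries lay on the side of set Q. Their positions were -0.27, -0.17, -0.28 and -0.31 for replicates 1 to 4, a mean of -0.26 ± 0.061 (SD, n = 4). The mean was -0.12 when *cat-2* RNAi replicate 1 was left out of the sets and -0.16 when *cat-1* RNAi replicate 4 was. They spanned less of the axis than either set did when left out, and all 4 were below every left-out library of set P. Of the 956 features higher in set P, the EV mean was nearer to the set Q mean in 814 (85.1%), and all 4 EV libraries were below all of set P in 578 (60.5%). Of the 174 lower features, the EV mean was nearer to set Q in 126 (72.4%), but all 4 EV libraries were above all of set P in only 73 (42.0%). The same shares were not taken over all features kept, so how far these depart from the general share is not known. The higher features also varied less among EV libraries, with a median SD of 0.11 on the log2 scale against 0.19 in *cat-1* RNAi and 0.20 in *cat-2* RNAi. Over all features kept these SDs were 0.11, 0.13 and 0.15, and the wider spread in the RNAi groups is what the rule selects.

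The 10 leading features higher in set P, those without overlap, with a mean of at least 5 RPKM and the largest difference, included several genes of the epidermis and its matrix. *cutl-16*, which encodes a cuticlin-like protein (chromosome II, 6441428 to 6443994, WBcel235), had 20.3, 15.3, 20.7 and 18.2 RPKM in set P, in the order *cat-1* RNAi replicates 1 and 2 and *cat-2* RNAi replicates 2 and 4. It had 5.299, 8.95, 10.95 and 6.99 RPKM in set Q, in the order *cat-1* RNAi replicates 3 and 4 and *cat-2* RNAi replicates 1 and 3, and 7.25, 7.96, 4.75 and 5.81 in EV replicates 1 to 4. All EV libraries were thus below all of set P, and the log2 difference was 1.199 with a residual SD within RNAi group and set of 0.36. The same orders of libraries hold below.

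*sox-2*, an HMG-box transcription factor gene (chromosome X, 7458280 to 7463736), had 18.7, 15.7, 18.9 and 18.1 RPKM in set P and 6.39, 8.51, 10.02 and 8.15 in set Q. The EV libraries, at 7.82, 8.78, 8.03 and 6.92 RPKM, lay within the range of set Q and none reached set P. *sym-1*, a leucine-rich repeat gene of the apical matrix (chromosome X, 14581622 to 14584378), had 14.7, 8.78, 8.62 and 10.7 RPKM in set P against 4.70, 4.39, 6.39 and 4.27 in set Q and 3.99, 6.03, 3.04 and 2.87 in EV. *dpy-14*, a cuticle collagen gene (chromosome I, 6843589 to 6845142), had 32.4, 16.8, 17.5 and 19.9 RPKM against 10.32, 7.62, 14.8 and 11.01 in set Q and 10.48, 10.9, 7.49 and 6.07 in EV. For both genes *cat-1* RNAi replicate 1 was the highest library and *cat-2* RNAi replicate 1 the highest of set Q.

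The aquaporin gene *aqp-2* (chromosome II, 9259048 to 9261981), a water and glycerol channel, had 61.8, 47.1, 67.7 and 59.2 RPKM in set P, 25.6, 25.8, 40.7 and 25.4 in set Q and 24.5, 32.5, 25.3 and 23.3 in EV. *zip-8*, a bZIP transcription factor gene on chromosome III, had 31.7, 29.6, 23.9 and 21.5 RPKM in set P, 11.33, 16.7, 18.4 and 11.37 in set Q and 12.13, 15.9, 14.1 and 11.2 in EV. The remaining leading features, T02E9.5, F55C9.5, W04A8.4 and W05H12.2, had log2 differences of 1.08, 0.96, 0.88 and 0.88. In F55C9.5 the EV libraries (3.37 to 11.44 RPKM) overlapped set P (10.04 to 20.5 RPKM), so the EV libraries did not all sit apart from set P there.

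**Figure D2:**
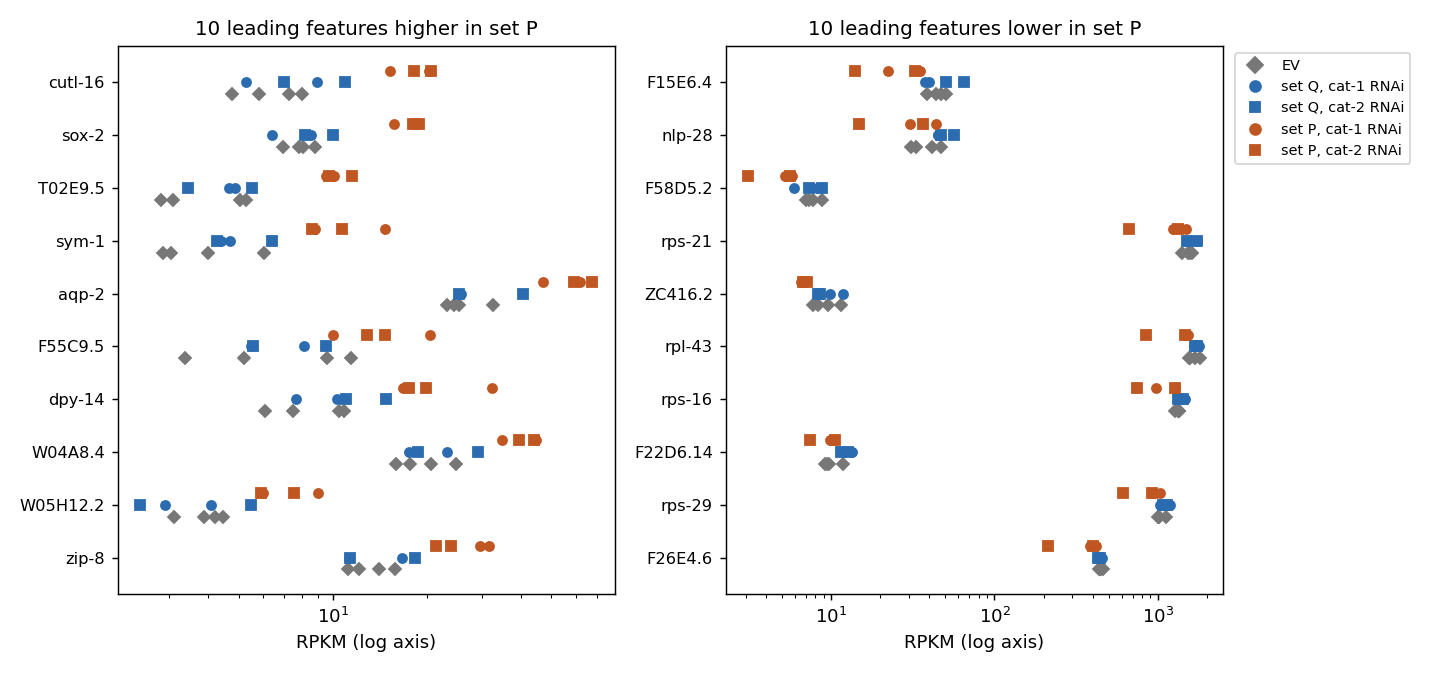
RPKM (log axis) of the 10 leading features in each direction, 1 symbol per library, with EV, set Q and set P offset vertically within each feature. *cutl-16* lies between 15.3 and 20.7 RPKM in set P and at most 10.95 in set Q, while in *rps-21* *cat-2* RNAi replicate 2 stands apart at 662 RPKM.

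The molting and apical matrix list had the largest share of higher members of the 68 lists. Of its 33 kept members (43 named, 42 found), 11 were higher in set P without overlap and 0 lower, with a median log2 difference of 0.38 against 0.039 over all features. The 11 were *mlt-2*, *mlt-8*, *mlt-11*, *noah-1*, *noah-2*, *fbn-1*, *let-653*, *lpr-6*, *sym-1*, *let-4* and *nhr-25*. After median-ratio scaling 10 were higher and 0 lower. Without *cat-2* RNAi replicate 2 the counts were 13 and 0, while 1250 of all 13161 features were higher. With a library left out the higher count could not fall below 11. The list's level is low, with a median of 2.06 RPKM, and its median difference was 0.21 with a pseudocount of 2 and 0.15 among features with a mean of at least 5 RPKM.

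*noah-1*, a zona pellucida domain gene required for the apical matrix, had 15.9, 9.70, 9.61 and 10.9 RPKM in set P, 5.88, 6.69, 8.30 and 5.27 in set Q and 6.111, 7.91, 4.88 and 4.88 in EV. *noah-2*, its paralogue, had 12.31, 8.34, 9.37 and 9.18 RPKM in set P, 5.06, 5.13, 7.71 and 4.93 in set Q and 5.49, 5.72, 4.52 and 4.08 in EV. Both had *cat-1* RNAi replicate 1 as the highest library. *fbn-1*, a fibrillin-related matrix gene, ran from 2.23 to 3.83 RPKM in set P, from 1.04 to 1.87 in set Q and from 0.611 to 1.29 in EV. The lipocalin gene *lpr-3* had a log2 difference of 0.93 but overlapped, since *cat-2* RNAi replicate 1 of set Q had 4.45 RPKM and the lowest library of set P 4.18.

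Genes of the collagens that shape the body and of hedgehog-related signals, both products of the epidermis, had few members without overlap. Among 10 kept body-shape collagens 1 was higher without overlap, *dpy-14*, and the median difference was 0.48. *dpy-17* (14.1 to 26.8 RPKM in set P and 9.10 to 17.3 in set Q) and *sqt-3* (12.4 to 20.5 and 9.22 to 14.5) overlapped. The 73 kept *col* genes, the large family of cuticle collagens, did not share the direction: 3 were higher, 1 lower, and the median was -0.093. The kinds of collagen thus differed in sign of the median with and without median-ratio scaling.

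Among 42 kept hedgehog-related and patched-related genes 4 were higher, *wrt-10*, *grl-8*, *ptr-4* and *ptr-10*, and 0 lower, with a median of 0.10. That share, 9.52%, was near the 7.26% of all features. *wrt-10*, a warthog-family gene, had 25.5, 15.6, 16.8 and 18.9 RPKM in set P, 9.56, 8.50, 13.02 and 10.1 in set Q and 8.30, 11.6, 5.91 and 6.93 in EV. Its EV libraries were all below set P.

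Transcription factor genes of development also had a large share of higher members. Of 59 kept homeobox and related genes, 13 were higher and 0 lower (22.03% higher against 7.26% of all features, median 0.13). With median-ratio scaling 8 were higher and 0 lower (13.6% against 4.77%, median 0.093). *ceh-43*, the Distal-less homologue, had 52.1, 44.7, 38.9 and 39.8 RPKM in set P, 24.6, 30.1, 28.6 and 25.3 in set Q and 22.1, 27.2, 30.4 and 25.5 in EV. *ceh-20*, the homologue of Pbx and Extradenticle, ran from 18.6 to 21.8 RPKM in set P, 12.27 to 17.1 in set Q and 10.8 to 14.5 in EV. *ceh-32*, of the Six3 and Six6 family, overlapped, since *cat-1* RNAi replicate 4 of set Q had 44.3 RPKM against 38.6 in the lowest library of set P.

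Of 169 kept nuclear hormone receptor genes 18 were higher and 0 lower (median 0.098), among them *nhr-25*, which acts in molting, and *nhr-67*. *nhr-67* ran from 2.23 to 2.51 RPKM in set P, from 1.42 to 2.13 in set Q and from 0.833 to 1.95 in EV. The share without overlap, 10.7%, was near the 7.26% of all features, and median-ratio scaling gave 12 higher and 1 lower.

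F-box genes, which encode substrate adaptors of ubiquitin ligases and form a large family in this species, had a median difference above that of all features. Of 273 kept, 33 were higher and 2 lower without overlap (12.09% and 0.733%, against 7.26% and 1.32% of all features), with a median of 0.17 against 0.039, and 32 and 2 after median-ratio scaling. *fbxb-37* had 5.07, 4.48, 5.81 and 5.38 RPKM in set P, 2.05, 2.59, 3.37 and 2.73 in set Q and 2.42, 2.95, 2.40 and 2.69 in EV. *fbxc-40* ran from 5.86 to 8.55 RPKM in set P and 4.24 to 5.66 in set Q, and its EV libraries were all below set P. Members of the family are similar in sequence, and how reads with several matches were counted is not given in the sources used here.

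Among 54 kept synaptic and pan-neuronal genes 13 were higher and 0 lower (24.1% higher against 7.26% of all features, median 0.083 against 0.039). *unc-44*, the ankyrin gene, had 8.29, 7.31, 8.66 and 7.86 RPKM in set P, 4.78, 5.90, 5.95 and 4.88 in set Q and 5.25, 5.76, 4.47 and 4.64 in EV. *unc-64*, which encodes syntaxin, ran from 11.7 to 12.7 RPKM in set P and 8.28 to 11.43 in set Q, but EV replicate 3 reached 12.34. Summed levels of 9 neuron markers ran from 282 to 325 RPKM in set P and 283 to 296 in set Q, and 2 of the 9 were higher and 0 lower without overlap (median 0.18). The markers of dopaminergic neurons, 3 of 6 kept, had none without overlap. They include the RNAi target *cat-2*, which reached 0.5 RPKM only in the *cat-2* RNAi libraries. As those libraries are in both sets, its overlap follows from the RNAi groups.

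Of 29 kept genes listed under AP-1 and MAP kinases, 6 were higher and 0 lower (20.7% higher against 7.26% of all features). The 6 were *tir-1*, *nsy-1*, *sek-1*, *let-60*, *zip-2* and *cebp-1*, and do not include the AP-1 genes *fos-1* and *jun-1*. After median-ratio scaling 5 of the 29 were higher and 2 lower (17.2% and 6.90%, against 4.77% and 3.01%). *tir-1*, the SARM1 homologue upstream of the NSY-1 kinase, had 12.9, 10.03, 11.6 and 10.52 RPKM in set P, 5.84, 5.92, 8.40 and 5.80 in set Q and 6.77, 7.30, 5.60 and 5.41 in EV. *nsy-1*, the kinase it acts through, ran from 17.2 to 19.6 RPKM in set P, 12.4 to 15.8 in set Q and 13.8 to 15.4 in EV.

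Single members of other lists joined the higher features. *his-24*, a linker histone gene on chromosome X, had 393, 374, 286 and 365 RPKM in set P, 223, 264, 279 and 201 in set Q and 205, 249, 204 and 193 in EV. *cyd-1*, the cyclin D gene, ran from 12.9 to 18.1 RPKM in set P, 8.18 to 11.04 in set Q and 8.48 to 10.4 in EV. Of 59 kept DNA replication and cell cycle genes 7 were higher and 1 lower, but 1 and 2 after median-ratio scaling, so that list has no direction that holds under both. Of 51 kept body wall muscle genes 5 were higher and 0 lower, *unc-97*, *unc-112*, *pat-3*, *pat-6* and *lim-9*, which act at the attachments of the sarcomere to the membrane. That share, 9.80%, was near the 7.26% of all features. *pat-6*, the parvin gene, ran from 20.1 to 23.6 RPKM in set P, 17.3 to 17.7 in set Q and 17.2 to 19.02 in EV.

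Cytosolic ribosomal protein genes had the largest share of lower members of the 68 lists. Of 79 kept, 27 were lower without overlap and 0 higher, against 1.32% of all features, with a median of -0.17, and 44 and 0 after median-ratio scaling. *rps-21* (chromosome III, 7189178 to 7189631) had 1243, 1479, 662 and 1333 RPKM in set P, 1733, 1507, 1501 and 1741 in set Q and 1606, 1570, 1523 and 1403 in EV. *rpl-43* had 1471, 1533, 851 and 1456 RPKM in set P and 1654 to 1792 in set Q. In both genes *cat-2* RNAi replicate 2 was far below the other libraries. Without it 30 of the 79 were lower and 0 higher, against 2.15% of all features lower, and the median moved to -0.11. Features without overlap stay so when a library is left out. The count could thus not fall below 27 and is no check on the part of this library.

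The other leading lower features included *nlp-28*, a small secreted peptide gene, with 30.5, 43.7, 14.8 and 36.4 RPKM in set P and 45.4 to 56.2 in set Q. Its EV libraries (30.8 to 47.3 RPKM) overlapped both sets. F15E6.4 had 22.3, 34.8, 13.9 and 32.9 RPKM in set P, 37.4 to 64.9 in set Q and 38.9 to 50.7 in EV. F26E4.6, named *cox-7C* in the annotation and so a cytochrome c oxidase subunit, had 213 RPKM in *cat-2* RNAi replicate 2 and 386 to 453 in the other RNAi libraries. ZC416.2 had 6.62, 6.52, 6.75 and 7.16 RPKM in set P, 8.32 to 11.9 in set Q and 7.70 to 11.5 in EV, and was the only leading lower feature in which *cat-2* RNAi replicate 2 was not the lowest library. The remaining leading lower features, F58D5.2, *rps-16*, F22D6.14 and *rps-29*, had log2 differences of -0.59, -0.40, -0.38 and -0.37. Of 33 kept tRNA synthetase genes 4 were lower and 1 higher, and of 45 kept glycolysis and citrate cycle genes 4 were lower and 0 higher, shares of 12.12% and 8.89% lower against 1.32% of all features, with medians of -0.038 and -0.028. Of 27 kept translation factor genes 1 was lower, *eif-6*, and 1 higher, *eef-1A.2* (181 to 218 RPKM in set P and 154 to 171 in set Q).

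Germline and oocyte genes had few members without overlap in the main setting. Among 49 kept oocyte and germline RNA-binding protein genes 1 was higher, *pie-1*, and 2 lower, *pgl-1* and *pgl-3*, with a median of 0.0043, which turned to -0.040 after median-ratio scaling. With that scaling 0 were higher and 6 lower (12.24% against 3.01% of all features), and without *cat-2* RNAi replicate 2 the counts were 1 and 6 (12.24% against 2.15%). *pgl-3*, a P granule gene, ran from 113 to 127 RPKM in set P, 132 to 141.9 in set Q and 131 to 138 in EV. The 6 vitellogenin genes, which encode yolk proteins, had 0 without overlap in either direction. Sperm genes were near the detection limit: of 45 kept major sperm protein and sperm peptide genes 1 was lower and 0 higher, their median level was 0.95 RPKM, and near-identical copies share reads, so their median of -0.39 is uncertain.

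**Figure D3:**
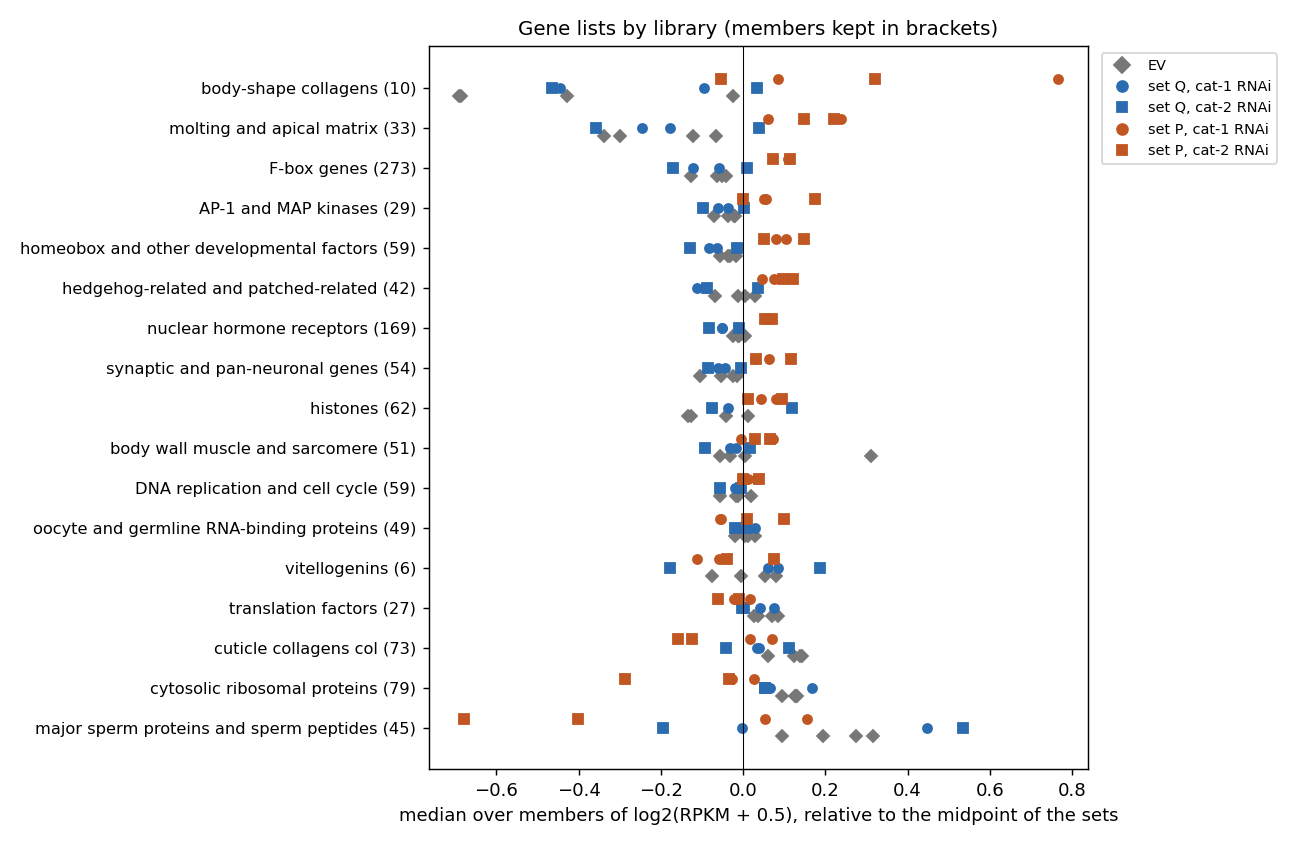
Median over the kept members of each of 17 gene lists of log2(RPKM + 0.5) relative to the midpoint of the sets, 1 symbol per library, with the number of members in brackets. The molting and apical matrix list has all of set P above all of set Q, with EV within the range of set Q, and *cat-2* RNAi replicate 2 lies lowest for cytosolic ribosomal proteins at -0.29.

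Markers of other cell types moved with the split only in part. The 13 embryo markers, 10 of them kept, summed to 67.6 to 80.6 RPKM in set P, 60.1 to 76.1 in set Q and 64.1 to 80.8 in EV, and 0 were without overlap. The 8 markers of gonadal sheath and spermatheca summed to 103.98 to 108 RPKM in set P and 91.3 to 97.9 in set Q, with 2 higher. The 6 excretory cell markers summed to 109.7 to 111.7 RPKM and 94.3 to 100.4, with 1 higher. The 10 hypodermis markers, 6 of them kept, summed to 598 to 673 RPKM in set P and 636 to 722 in set Q, and 0 were without overlap. The 6 seam cell markers, also epidermal and 5 of them kept, had 2 higher and 0 lower with a median difference of 0.24, and summed to 86.6 to 103.6 RPKM in set P and 76.6 to 121.4 in set Q. Of the 6 glia markers 2 were kept and 1 was higher (median 0.38), and mir-228 was at 0. The 13 germline markers summed to 6103 to 6442 and 6229 to 6601 RPKM. The 11 sperm markers summed to 2.96 to 9.84 and 5.402 to 11.9 RPKM. The part of any of these cell types in the gene lists was not tested.

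Chromosome X held a larger share of the higher features than the other chromosomes. Of 1766 kept features on X, 231 were higher without overlap (13.1%) and 4 lower, with a median difference of 0.10. The shares on chromosomes I to V ran from 5.34% to 7.42%, together 6.38% with a median of 0.032. Median-ratio scaling gave 8.89% on X and 4.14% on I to V. Genes named above that lie on X include *sox-2*, *sym-1*, *his-24*, *eef-1A.2* and the RNAi target *cat-1*.

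Feature length also moved with the split. Over 5 equal bins of annotated exon length, from the shortest to the longest, the share higher without overlap was 2.27%, 5.99%, 6.53%, 8.70% and 13.2%. The rank correlation of difference with length was 0.16 over 12546 features and 0.066 without *cat-2* RNAi replicate 2, and the median difference in the shortest bin changed from -0.0086 to 0.024. The part of length in the lists of long and short genes was not tested.

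**Figure D4:**
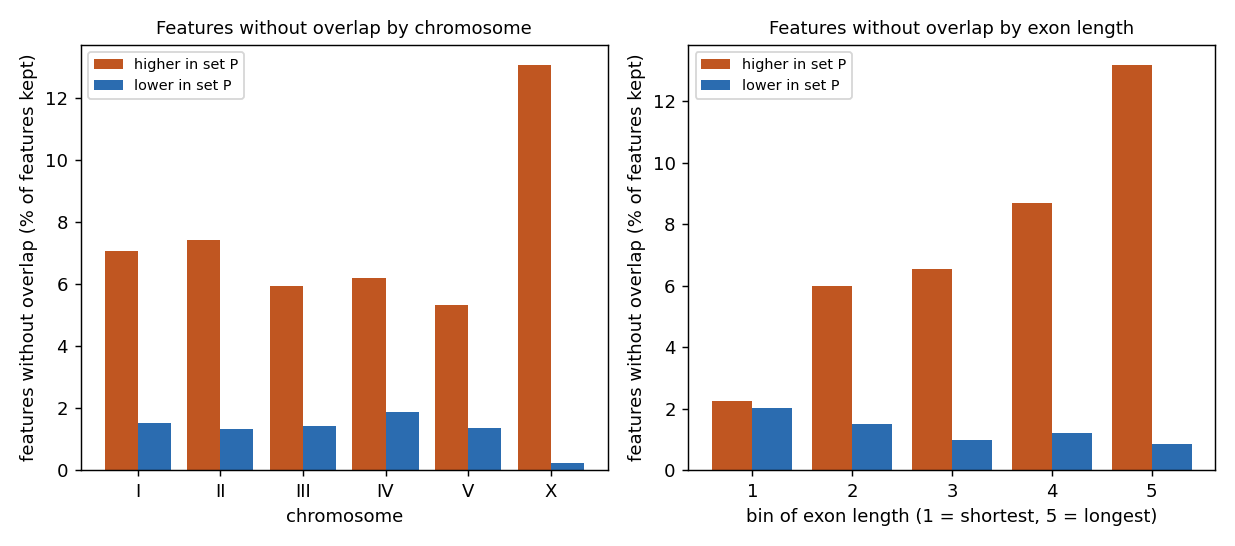
Share of kept features without overlap (percent), higher in set P and lower in set P, by chromosome (left) and by bin of exon length from shortest to longest (right). Chromosome X has 13.1% higher, and the longest bin has 13.2% against 2.27% in the shortest.

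The RNAi comparisons, which weigh both sets equally, called few features. None of those without overlap was called. With so few calls, and with features picked for a wide spread within the RNAi groups, this absence says nothing about them. With limma and Benjamini-Hochberg adjustment over all 13161 features, *cat-1* RNAi against EV had 0 calls at an adjusted p of 0.05 (782 at an unadjusted p of 0.05, 5.94%). *cat-2* RNAi against EV had 4 (0.0304%; 1163 unadjusted, 8.84%), and *cat-1* RNAi against *cat-2* RNAi had 0 (848 unadjusted, 6.44%). The 4 were F56F3.7, *nspc-12* and the ferritin gene *ftn-1*, higher by 1.78, 1.69 and 0.85 on the log2 scale (limma adjusted p = 0.029, 0.037 and 0.037), and F44G3.2, which fell by 1.06 (limma adjusted p = 0.022). None of the 4 was called when replicate 1 of either RNAi group was left out, or replicate 3 or 4 of EV, nor without a filter on level or with a replicate block. Of the 956 features higher in set P, 92 were higher and 4 lower than EV at an unadjusted p of 0.05 upon *cat-1* RNAi, and upon *cat-2* RNAi 116 reached that level, 2 of them lower. Both comparisons share the EV libraries, and the 956 and 174 features were picked by RNAi values that enter them. At that level all 13161 features gave 454 higher and 328 lower upon *cat-1* RNAi, and 643 and 520 upon *cat-2* RNAi. Of the 174 lower features, 2 were higher and 5 lower upon *cat-1* RNAi, and 1 and 32 upon *cat-2* RNAi. Between *cat-1* RNAi and *cat-2* RNAi, 0 of the 956 and 0 of the 174 did, and a wide spread within both groups is what the split selects.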

How the data were processed

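Poly(A) RNA of whole worms was sequenced by the authors, mapped with CLC Genomics Workbench to ce11 and deposited as RPKM per feature, with group means and the p-value columns of their own comparisons, which hold the study's findings and were not used. No source used here gives the mapping settings or the strand. From the deposited RPKM, log2(RPKM + 0.5) was computed for features at 0.5 RPKM or more in at least 4 libraries. This pseudocount makes fold changes of low features smaller. Library totals were recovered from the steps of RPKM. Chromosomes and exon lengths came from the Ensembl annotation of WBcel235 (release 115), matched for 12546 of the 13161 features (95.3%).

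A library's position was its projection on the difference of the set means. The residual SD was taken within RNAi group and set (4 degrees of freedom). RNAi comparisons used limma 3.58.1 (R 4.3.3) with variance trend and robust estimation, all 12 libraries in 1 fit. The labels call the samples biological replicates. Named genes were the 10 features with the largest difference in each direction, without overlap and with a mean of at least 5 RPKM. To these were added up to 5 members of each described list at 2 RPKM or more, the RNAi targets, *rde-1* and *sid-1*. Other members named are those without overlap. The split, the members and the 68 gene lists were chosen with earlier results of these data known. Scripts were tested on simulated data. Alternatives were another scaling, other pseudocounts and filters, a replicate block, library weights and leaving out each library. Python 3.11.15, numpy 2.4.6 and pandas 2.3.3 were used.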

Additional observations from a re-analysis of the deposited data

Results flagged for a closer look

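Among 366 groups of 4 libraries (positions, list medians and genes, each within the 3 groups), 23 held a library far from the other 3. Chance alone flags about 1 in 20 groups, but that rate does not apply to genes picked from the split. No position on the split was flagged. In the RNAi groups this is largely built in, since the split divides each of them between the sets.

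In *cat-2* RNAi replicate 2, *rpl-41* was low at 595 RPKM (others 1657 to 1788) and *col-135* at 2.69 (7.76 to 8.12), while *orc-5* was high at 102 (74.9 to 78.4), *nhr-78* at 7.82 (4.50 to 4.84) and *unc-98* at 5.78 (3.36 to 3.62). In *cat-1* RNAi replicate 1, *nlp-28* was low at 30.5 RPKM, *rps-28* at 1208, *col-94* at 2.91 and *nhr-202* at 1.95. In *cat-1* RNAi replicate 2, *col-129* was low at 2.00 RPKM. In *cat-1* RNAi replicate 4, *his-5* was low at 2.13 RPKM and *his-17* was listed at 0 against 5.46 to 6.24 in the other libraries of its group; histone genes share near-identical copies. In *cat-2* RNAi replicate 1, *col-129* was high at 4.90 RPKM and *col-144* at 9.59. In *cat-2* RNAi replicate 3, *lpr-3* was low at 1.42 RPKM and *unc-64* at 9.42.

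Among the EV libraries, replicate 2 had the list median of body wall muscle genes at 0.31 against -0.056 to 0.0049 in the others, and that of cytosolic ribosomal proteins at 0.096 against 0.13. Replicate 1 was high in *rps-29* (1125 RPKM) and *fbxa-77* (3.07), replicate 3 was high in *cat-2* (0.209) and low in *grd-14* (2.25), and replicate 4 was low in *rps-16* (1266).

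The oocyte and germline RNA-binding protein list went opposite ways in the RNAi groups: the mean of its list medians in set P less that in set Q was -0.069 within *cat-1* RNAi and 0.061 within *cat-2* RNAi, with both libraries of each set on their side. Within *cat-2* RNAi the list medians were 0.10 and 0.011 in set P (replicates 2 and 4), against 0.0075 and -0.019 in set Q (replicates 1 and 3). The direction there thus rested mostly on replicate 2, without which the median difference over both groups was -0.030. The difference between the RNAi groups was not tested.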

How the results depend on the processing

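The 956 higher and 174 lower features without overlap became 628 and 396 with median-ratio scaling; all 628 were among the 956 and all 174 among the 396. Leaving out 1 library gave 1125 to 1654 and 258 to 430 (283 lower without *cat-2* RNAi replicate 2), and 1 RNAi group alone gave 4140 and 1723 (*cat-1* RNAi) or 3366 and 1974 (*cat-2* RNAi), since fewer libraries must be apart. The 266 higher and 103 lower features at 1.5-fold became 573 and 272 with a pseudocount of 0.1, 68 and 22 with a pseudocount of 2, and 63 and 24 at a mean of at least 5 RPKM. Leaving out 1 library gave 219 to 436 and 102 to 220, *cat-1* RNAi alone gave 591 higher, and *cat-2* RNAi alone 390 lower. The mean EV position of -0.26 was -0.37 at a mean of at least 5 RPKM, -0.16 in *cat-1* RNAi alone, -0.18 in *cat-2* RNAi alone, and -0.31 to -0.12 leaving out 1 library; it was below 0 in each. The cause of these moves was not tested.

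Upon *cat-2* RNAi against EV, the 4 calls became 2 with median-ratio scaling, 1 with a pseudocount of 0.1, 0 without a filter, 9 with library weights and 0 to 8 leaving out 1 library (8 without *cat-2* RNAi replicate 2). Leaving out 1 library gave 0 to 1 calls for *cat-1* RNAi against EV and 0 to 2 between the RNAi groups, where library weights gave 1. In deviations from the group means, same-numbered libraries of different groups correlated from -0.058 to 0.19, and differently numbered ones from -0.24 to 0.18. The highest value, 0.19, was between replicates 3 of *cat-1* RNAi and *cat-2* RNAi, both in set Q. The highest among differently numbered ones joined libraries of set P. The labels do not say whether the replicate number marks a pairing, and that was not tested. The replicate block gave 0, 0 and 0 calls for *cat-1* RNAi against EV, *cat-2* RNAi against EV and *cat-1* against *cat-2* RNAi.

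Of 824 values of 103 named genes with 1 library left out, 815 kept the sign of the difference, and of 136 list medians 131 did. Most of these genes were picked by their differences in the same libraries. In those without overlap the sign could not turn, so the 815 is no measure of their stability. Low levels limit the collagen, matrix and sperm lists, and RPKM of a few reads moves in large steps.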

Other observations

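Other gene groups gave further values on the split, beside 7.26% of all features higher and 1.32% lower without overlap. Endoplasmic reticulum folding genes, which serve the secretory pathway, had 4 of 25 kept members higher in set P without overlap and 0 lower (median 0.050), and secretion and membrane traffic genes had 8 higher and 1 lower of 91 (8.79% higher). Calcium channel, pump and sensor genes had 4 higher and 0 lower of 35, and small RNA pathway genes 5 and 1 of 50. The shares of traffic, calcium and small RNA genes lay near that of all features. The 17 kept cilia genes had a median difference of 0.18 with 0 members without overlap, at a median level of 0.62 RPKM. Proteasome genes (32 kept), cytochrome P450 genes (49) and vacuolar ATPase genes (21) had 0 members without overlap in either direction.

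Some lists of secreted and defence genes differed in sign between the RNAi groups. Nematode-specific peptide families had a median difference of 0.19 within *cat-1* RNAi and -0.24 within *cat-2* RNAi, and lysozymes, saposin-like and antimicrobial peptides had 0.16 and -0.19. Neither list had a member without overlap, and the difference between the RNAi groups was not tested. Without *cat-2* RNAi replicate 2 the medians over both groups were 0.10 and 0.050, in place of -0.027 and -0.057.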
